A study of Sus scrofa with 9 samples.

Results

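The antioxidant enzymes described here are 10 genes: the superoxide dismutases SOD1 and SOD2, the glutathione peroxidases GPX1, GPX3 and GPX4, the peroxiredoxins PRDX1, PRDX2, PRDX4 and PRDX6, and thioredoxin, TXN. They were taken by symbol, whatever their level: every probe set annotated to 1 of these symbols alone, which gave 13 of the 23999 endogenous probe sets on the array and 10 of the 6765 genes annotated there. GPX4, PRDX4 and TXN had 2 probe sets each and the other 7 genes had 1, and all 13 passed the filter on dim signals. The tissue was mammary gland of 6 Large White sows, kept on corn and soybean meal diets, each biopsied in late pregnancy (day -17, within about 2 days), 1 day after farrowing (day 1) and in lactation (day 17). The age of the sows is not given in the sources used here. Total RNA of 2 sows was mixed in equal volumes for each array, so each of the 3 days has 3 pools and the single sows cannot be seen. Pools are numbered 1 to 3 on each day, and the labels do not say whether a number stands for the same pair of sows throughout.

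Cells make superoxide and hydrogen peroxide as by-products of respiration and of disulfide formation in the endoplasmic reticulum, both of which are busy in a gland that secretes milk. Superoxide dismutases turn superoxide into hydrogen peroxide. Glutathione peroxidases, several of which carry selenocysteine in the active site, and peroxiredoxins then reduce peroxides, using glutathione or thioredoxin as the source of electrons.

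Signals are MAS5 intensities on a linear scale, without a unit. Where a gene had several probe sets, the brightest on average (in log2) stands for it. Differences between days are log2 differences ± standard error from limma, with 3 pools per day, fitted over all 15519 probe sets that passed the filter. A gene was called higher or lower at a Benjamini-Hochberg adjusted p of 0.05 over all of them. Probes differ in how strongly they bind, so signals of different genes are not compared with each other. In bulk tissue, fewer cells of a type and less RNA per cell cannot be told apart.

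Several features of the whole gland moved with the days. Summed signals of 8 luminal epithelial markers were 39318 to 52931 on day -17, 114150 to 167620 on day 1 and 233980 to 235770 on day 17. The milk protein genes CSN2, CSN3 and LALBA and EPCAM carried this sum, whereas the means of the keratins KRT8, KRT18 and KRT19 went from 4949 to 1603, 1858 to 711 and 3296 to 1355 between days -17 and 17, when 5 of the 8 markers were called higher and 2 lower. The summed signals of 6 fibroblast markers were 37871 to 52590, 17069 to 44886 and 16702 to 18556, and none of the 5 annotated skeletal muscle markers passed the filter. The ratio of the 3′ to the 5′ actin probe set, a sign of RNA length, was 7.01 to 7.26 on day -17, 8.39 to 9.57 on day 1 and 14.5 to 15.9 on day 17, while that of GAPDH went from 2.38 to 3.06 down to 1.77 to 1.98. The median of 21 probe sets for E. coli transcripts, meant to be added in a fixed amount before hybridization, was 1916 to 2010 on day -17, 2344 to 2619 on day 1 and 4408 to 5201 on day 17. The part of these features in the results below was not tested. Scaling the arrays to the E. coli controls lowers every log2 difference by 0.32 for day 1 against day -17, by 0.96 for day 17 against day 1 and by 1.28 for day 17 against day -17, so directions below are relative to the common mean of the deposited arrays.

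The 5 genes that differed among the 3 days were 4 peroxiredoxins and SOD1. PRDX6 fell at each step, PRDX4 rose by day 1 and was still higher on day 17, PRDX1 fell from day 1 to day 17, and PRDX2 fell from day -17 to day 17. SOD1 was lowest on day 1. The limma F test over the 3 days called these 5 of 10, where 47.8% of all 5670 genes tested were called. A share of this size is close to that background, so the account is of which members moved and how.

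**Figure D1:**
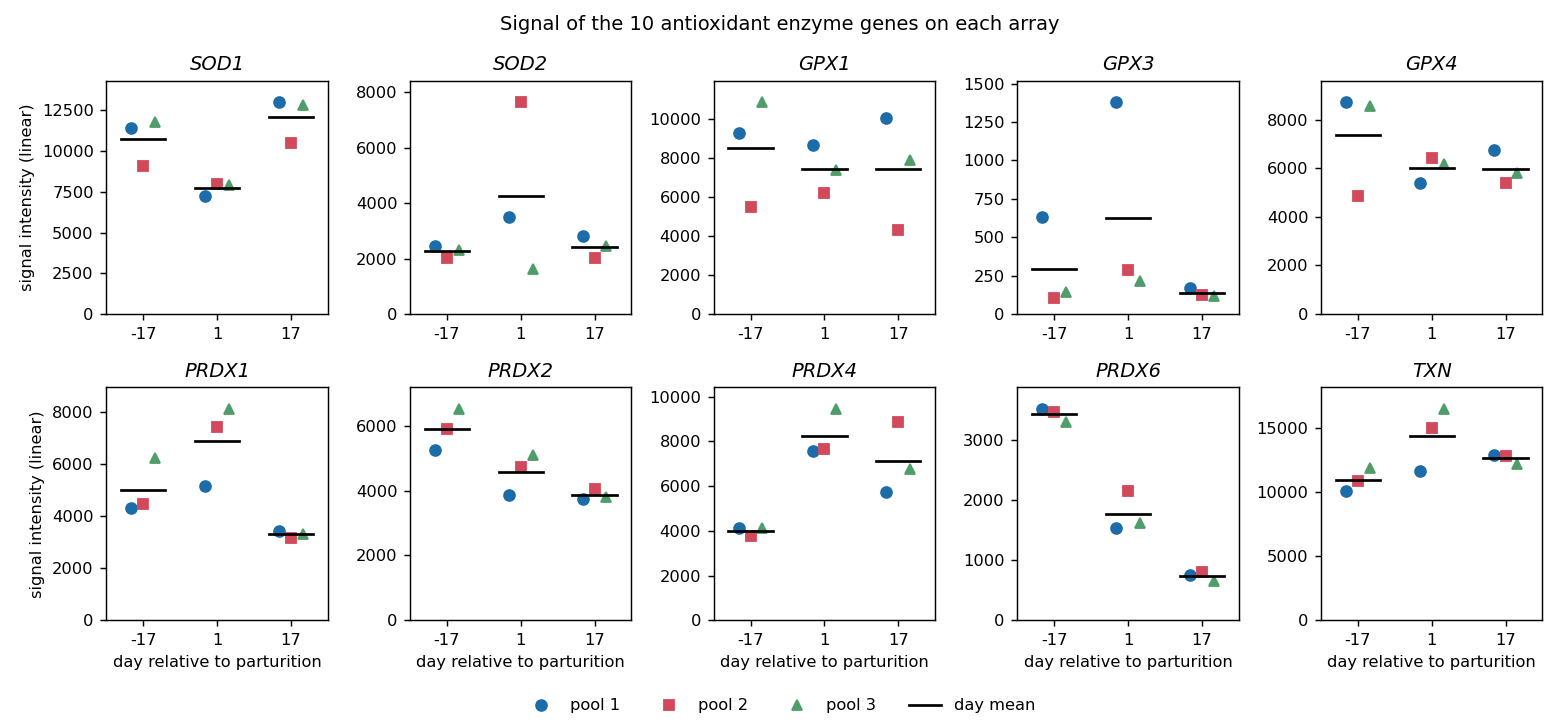
Signal intensity (linear scale from 0, own scale in each panel) of the 10 antioxidant genes on the 9 arrays, by day relative to parturition, with 1 symbol per pool and a line at the mean of each day. PRDX6 steps down from 3426 to 1765 to 735 with no overlap between days, PRDX4 is higher on days 1 and 17 than on day -17, and SOD2 and GPX3 differ widely among the pools of day 1.

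Against day -17, 1 of the 10 members was called higher on day 1 and 2 were called lower. Over all genes these shares were 15.3% higher and 10.4% lower, 25.7% in all, and 24.1% of all probe sets were called. The 3 values of one day lay wholly above those of the other for 4 of 10 members and for 41.3% of all genes. The median log2 difference of the members was 0.11, beside -0.00080 for all genes. PRDX4 was the member that rose, and SOD1 and PRDX6 were those that fell. When pool number entered the fit as a fixed block the count was 5, 2 higher and 3 lower, since TXN (adjusted p = 0.0443 by limma) and PRDX2 (0.0354) then passed. A random block gave 5 as well. The count was also 5 with day 1 pool 1 left out, when PRDX1 (0.65, adjusted p = 0.0139) and TXN (0.52, 0.00512) passed.

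From day 1 to day 17, 1 member was called higher and 2 lower, where 8.02% and 8.57% of all genes were called, 16.6% together (13.6% of probe sets). Values did not overlap for 4 of 10 members, beside 37.6% of all genes, and the median was -0.23 for the members and -0.035 for all genes. SOD1 rose, and PRDX1 and PRDX6 fell. From day -17 to day 17, 1 member was higher and 3 were lower, where the background was 23.8% in each direction, 47.6% together (46.5% of probe sets). Values did not overlap for 5 of 10 members against 60.8% of all genes, with medians of -0.25 and -0.032. PRDX4 was higher, and PRDX1, PRDX2 and PRDX6 were lower. The 3 comparisons share samples, so their calls are not independent.

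**Figure D2:**
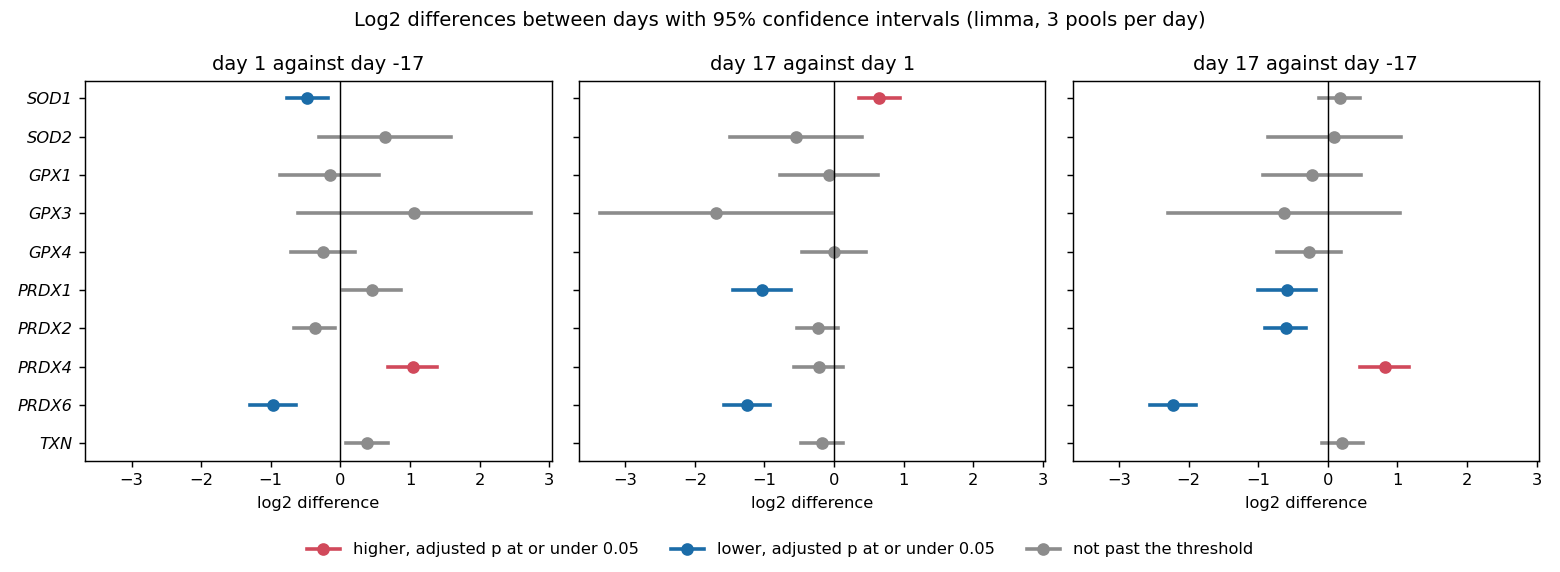
Log2 differences (points) with 95% confidence intervals (lines) of the 10 genes in the 3 comparisons, coloured by call. PRDX6 lies below 0 in all 3 panels, at -0.97, -1.25 and -2.23, while the intervals of GPX1, GPX4 and SOD2 span 0 in every panel.

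PRDX6 is the 1-Cys peroxiredoxin, which reduces phospholipid hydroperoxides and also has phospholipase activity. Its signal was 3514, 3465 and 3297 in day -17 pools 1 to 3, 1532, 2140 and 1623 on day 1, and 753, 798 and 654 on day 17. Every pool of an earlier day was above every pool of a later day. PRDX6 fell 1.96-fold by day 1 (-0.97 ± 0.15, limma adjusted p = 0.00182) and a further 2.38-fold by day 17 (-1.25 ± 0.15, adjusted p = 0.00164). From day -17 to day 17 the fall was 4.68-fold (-2.23 ± 0.15, adjusted p = 4.66e-06; 95% interval -2.56 to -1.89). These 3 calls held under all 20 alternative settings, with the full change between -3.50 and -2.14.

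PRDX4 is the peroxiredoxin of the endoplasmic reticulum, where it uses hydrogen peroxide to form disulfides in secretory proteins. Its brighter probe set gave 4119, 3757 and 4110 on day -17, 7562, 7678 and 9465 on day 1, and 5760, 8858 and 6787 on day 17. No pool after farrowing was as low as any pool before it. PRDX4 rose 2.05-fold by day 1 (1.04 ± 0.16, limma adjusted p = 0.00186) and was 1.76-fold higher on day 17 than on day -17 (0.81 ± 0.16, adjusted p = 0.00251), although it was lower on day 17 with E. coli scaling (-0.46, adjusted p = 0.0295). Between days 1 and 17 the difference was -0.22 ± 0.16 (adjusted p = 0.380).

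The other PRDX4 probe set did not follow the first. It was dim, at 195, 226 and 187 on day -17, 191, 157 and 184 on day 1, and 162, 158 and 55.4 on day 17, where the filter level of the arrays lay between 82.1 and 94.2. Its differences did not pass (-0.19 ± 0.37 by day 1, adjusted p = 0.738; -0.85 ± 0.37 from day -17 to day 17, adjusted p = 0.0856). Averaging both probe sets ended the PRDX4 calls, with 0.42 by day 1 (adjusted p = 0.172) and -0.016 from day -17 to day 17 (0.958). The rise is therefore that of 1 probe set.

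PRDX1 and PRDX2 are cytosolic peroxiredoxins that are recycled by thioredoxin. PRDX1 gave 4288, 4465 and 6225 on day -17, 5153, 7399 and 8111 on day 1, and 3410, 3169 and 3295 on day 17. The values of day 17 lay close together and below all others, whereas those of days -17 and 1 overlapped. PRDX1 fell 2.06-fold from day 1 to day 17 (-1.04 ± 0.19, limma adjusted p = 0.00784), which held under all 20 alternatives. It was also lower on day 17 than on day -17 (-0.58 ± 0.19, adjusted p = 0.0281). That call ended when pool 3 of day -17 was left out (adjusted p = 0.108), when any 1 pool of day 17 was (0.0587, 0.0779 and 0.0675 for pools 1 to 3), after median centring (0.0771) and when no intensity trend was fitted (0.0517). By day 1 the difference of 0.46 ± 0.19 did not pass (0.102), though it did when pool 1 of day 1 was left out (0.65, 0.0139).

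PRDX2 gave 5261, 5890 and 6522 on day -17, 3863, 4728 and 5108 on day 1, and 3732, 4035 and 3805 on day 17. All values after farrowing were below all values before it, and pool 1 was the lowest on each day. PRDX2 fell 1.52-fold from day -17 to day 17 (-0.61 ± 0.13, limma adjusted p = 0.0043), which held under all 20 alternatives. The difference of -0.37 ± 0.13 by day 1 had an adjusted p of 0.0656. It passed with a block for pool number, fixed (0.0354) or random (0.042), after quantile normalization (-0.51, 0.0153) and with E. coli scaling (-0.69, 0.00595). PRDX2 is also an abundant protein of red blood cells. Summed signals of the 4 annotated erythrocyte markers (HBB, HBM, ALAS2 and AHSP) were 1731 to 3998 on day -17, 911 to 1668 on day 1 and 768 to 897 on day 17, none of them at 0. In day -17 pools 1 to 3, ALAS2 gave 1412, 97.2 and 206, HBM 645, 109 and 144, and AHSP 471, 40.3 and 35.9. These were highest in pool 1, where PRDX2 was lowest, while HBB was not (1472, 1569 and 1346). The mean of AHSP was 77.8 on day 1 and 145 on day 17. The part of red blood cells in the fall of PRDX2 was not tested.

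TXN, thioredoxin, passes electrons from NADPH to peroxiredoxins and other proteins. Its brighter probe set gave 10058, 10850 and 11890 on day -17, 11597, 14940 and 16471 on day 1, and 12883, 12774 and 12186 on day 17. The pools of day 17 were all above those of day -17, while day 1 overlapped with both. No TXN comparison passed: the differences were 0.38 ± 0.13 by day 1 (limma adjusted p = 0.0646), -0.17 ± 0.13 from day 1 to day 17 (0.426) and 0.21 ± 0.13 from day -17 to day 17 (0.222). The first passed with a block for pool number, fixed (adjusted p = 0.0443) or random (0.0446), after median centring (0.50, 0.0476) and when pool 1 of day 1 was left out (0.52, 0.00512). The last was negative after quantile normalization (-0.16) and with E. coli scaling (-1.07). The second TXN probe set, at 1751 to 1959, 2087 to 2325 and 1872 to 2094 on the 3 days, gave differences of the same signs (0.25 ± 0.11, -0.13 ± 0.11 and 0.12 ± 0.11), none of them past the threshold.

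SOD1, the copper and zinc superoxide dismutase of the cytosol, dipped on day 1. Its signal was 11416, 9074 and 11817 on day -17, 7244, 7975 and 7911 on day 1, and 13004, 10498 and 12818 on day 17. The 3 pools of day 1 were below all 6 others, and day 17 overlapped with day -17. SOD1 fell 1.39-fold by day 1 (-0.47 ± 0.13, limma adjusted p = 0.0279) and was 1.56-fold higher on day 17 than on day 1 (0.65 ± 0.13, adjusted p = 0.0129), but lower with E. coli scaling (-0.31, 0.0401). Both calls were sensitive to single arrays. The call of the fall was lost when pool 1 or 3 of day -17 (adjusted p = 0.0807 and 0.0976) or pool 2 or 3 of day 1 (0.0531 and 0.0636) was left out, after median centring (0.134), when no intensity trend was fitted (0.0629) and with the 6 samples alone (0.0532). The call of the later rise was lost when pool 1 (0.0532) or pool 3 (0.0533) of day 17 was left out. Day 17 differed from day -17 by 0.17 ± 0.13 (adjusted p = 0.307), with the opposite sign after quantile normalization (-0.16) and E. coli scaling (-1.11).

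SOD2 is the manganese superoxide dismutase of mitochondria and is known to be induced by inflammatory cytokines. It gave 2465, 2006 and 2310 on day -17, 3509, 7648 and 1612 on day 1, and 2826, 2021 and 2444 on day 17. The pools of days -17 and 17 were alike, whereas on day 1 pool 2 was the highest and pool 3 the lowest of all 9 arrays. No SOD2 comparison passed, with 0.64 ± 0.43 by day 1 (limma adjusted p = 0.299; 95% interval -0.31 to 1.59) and -0.54 ± 0.43 from day 1 to day 17 (0.423). Both passed when pool 3 of day 1 was left out (1.20, adjusted p = 0.0278, and -1.11, 0.0493), and they became 0.079 (0.873) and 0.018 (0.975) when pool 2 was. Day 17 differed from day -17 by 0.10 ± 0.43 (0.869).

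The glutathione peroxidases did not pass in any comparison. GPX1, the cytosolic enzyme, gave 9257, 5454 and 10839 on day -17, 8656, 6191 and 7390 on day 1, and 10010, 4305 and 7870 on day 17. Pool 2 was the lowest on each day, and the spread among pools was wider than any difference between days. The GPX1 differences were -0.16 ± 0.32, -0.07 ± 0.32 and -0.23 ± 0.32 in the order of the comparisons above (limma adjusted p = 0.752, 0.898 and 0.576). The 95% interval from day -17 to day 17, -0.94 to 0.48, leaves room for a change of nearly 2-fold downward.

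GPX4 reduces lipid hydroperoxides within membranes. Its brighter probe set gave 8731, 4884 and 8568 on day -17, 5399, 6414 and 6196 on day 1, and 6742, 5389 and 5817 on day 17. Day -17 pool 2 stood below every other array and the other pools of that day above every other array. The differences were -0.26 ± 0.21 by day 1 (limma adjusted p = 0.394), -0.0072 ± 0.21 from day 1 to day 17 (0.986) and -0.26 ± 0.21 from day -17 to day 17 (0.318). When that pool 2 was left out, the first and the last passed (-0.53, adjusted p = 0.0317, and -0.54, 0.0144). The other GPX4 probe set was dim, between 66.0 and 149, and none of its differences passed.

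GPX3 is the secreted glutathione peroxidase of plasma, and its transcript was the most variable of the members on days -17 and 1 (coefficients of variation of 101% and 105%), though not on day 17 (21.6%, beside 39.0% for GPX1). It gave 633, 101 and 143 on day -17, 1379, 285 and 212 on day 1, and 171, 121 and 119 on day 17. Pool 1 was the highest on each day, and the 3 values of day 17 were below those of day 1. The difference from day 1 to day 17 was -1.69 ± 0.75 (limma adjusted p = 0.158; 0.0236 with pool number as a fixed block, 0.0986 as a random one). By day 1 it was 1.06 ± 0.75 (0.324). Without day 1 pool 1 these were -0.86 (0.402) and 0.23 (0.813). From day -17 to day 17 the GPX3 difference was -0.63 ± 0.75 (0.515), which turned to 0.17 without day -17 pool 1. Adipocytes also make GPX3. The summed signals of all 9 annotated adipocyte markers, none at 0, were 9600 to 26390, 18763 to 25683 and 29211 to 29396, a sum led by FABP4 and LPL. The rise of the sum is not that of most markers. By limma, 2 of the 9 were called higher and 4 lower on day 17 than on day -17, with a median log2 difference of -2.03. Pool 1 was the highest for 9 of these 9 markers on day -17, for 7 on day 1 and for 5 on day 17, when ADIPOQ, RBP4, GPD1 and LIPE were below the filter level on every array. Their part in the GPX3 values was not tested.

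A factor common to a whole array cancels in the difference between a pair of genes on it, although quantile normalization, which is no such factor, can still move it (SOD2 minus SOD1 from day -17 to day 17 was -0.075 as deposited and 0.19 after it). PRDX6 minus PRDX2 had a mean of -0.78 ± 0.20 (SD, n = 3) on day -17, -1.38 ± 0.26 on day 1 and -2.40 ± 0.13 on day 17, with no overlap between any of the days. PRDX4 minus PRDX1 went the other way, from -0.30 ± 0.27 to 0.28 ± 0.25 and 1.09 ± 0.37, again without overlap. Each of these 6 steps had an exact permutation p of 0.1, two-sided, the smallest that 3 against 3 can give, and 0.214 after adjustment over the 15 tests of this kind. PRDX1, PRDX2, PRDX4 and PRDX6 each had a call above from these same arrays, so the steps describe those values a second time. Among single genes, 41.3%, 37.6% and 60.8% did not overlap in the 3 comparisons, and no such share was taken over other pairs of genes. With both PRDX4 probe sets averaged, PRDX4 minus PRDX1 differed by -0.037 by day 1 and by 0.56 from day -17 to day 17, in place of 0.58 and 1.40.

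GPX3 minus GPX1 was lower on day 17 than on day 1 without overlap (-1.62, exact permutation p = 0.1, adjusted 0.214). Day 1 overlapped with day -17, but within same-numbered pools the difference was higher on day 1 in 3 of 3, by 1.12 to 1.32 (exact sign-flip permutation p = 0.25, the smallest that 3 pairs can give). For comparison, PRDX4 minus PRDX1 was higher by 0.30 to 0.82 within pools, and PRDX6 minus PRDX2 differed by -0.75 to -0.38. SOD2 minus SOD1 spanned -2.29 to -0.06 among the pools of day 1 alone, beside -2.35 to -2.18 on day -17 and -2.39 to -2.20 on day 17. GPX4 minus GPX1 differed by 0.10 or less between the day means, with exact permutation p values of 0.8 to 0.9.

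**Figure D3:**
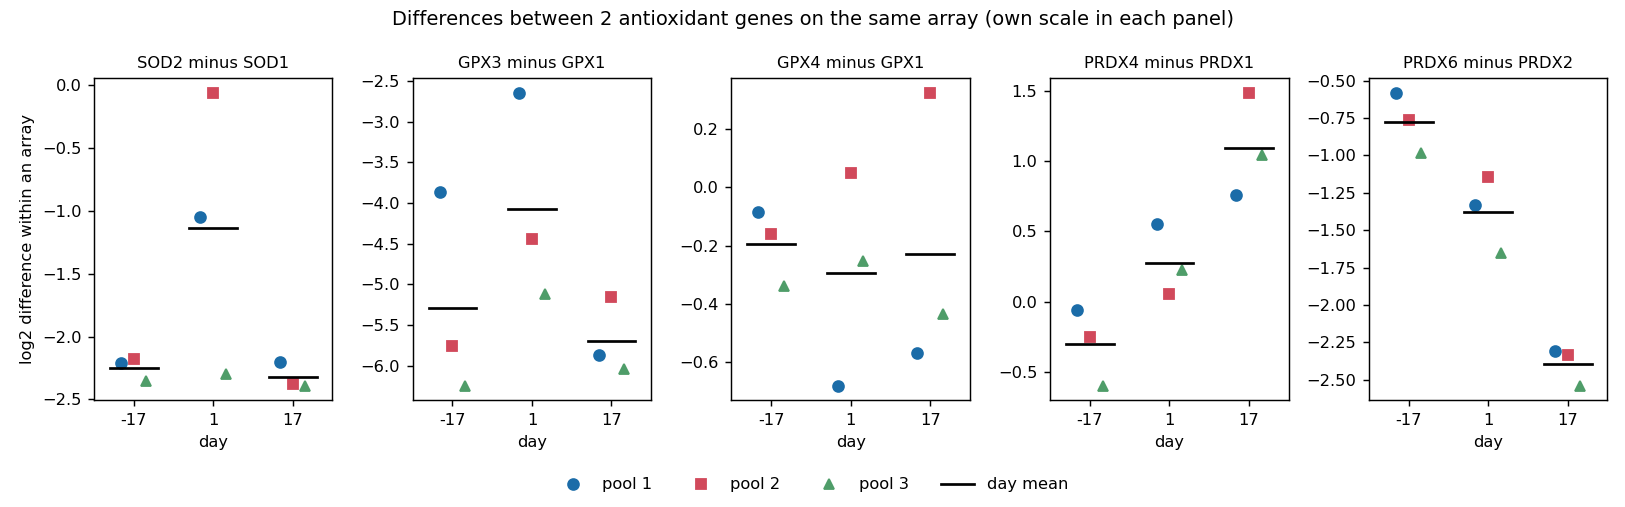
Log2 signal of one gene minus that of another on the same array, by day, for 5 pairs (own scale in each panel, 1 symbol per pool, line at the mean of each day). PRDX4 minus PRDX1 steps up and PRDX6 minus PRDX2 steps down without overlap, whereas GPX4 minus GPX1 shows day means between -0.29 and -0.19.

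The scaling decides how many members are called lower on day 17. With E. coli scaling all 10 were called lower on day 17 than on day 1, and all 10 lower than on day -17, where 11723 and 12968 of the 15519 probe sets were called of which 0.776% and 3.65% were higher, in place of 51.5% and 46.6%. The constant leaves the order of the members as it was: from day -17 to day 17 they lay between -3.50 for PRDX6 (adjusted p = 6.07e-07 by limma) and -0.46 for PRDX4 (0.0295). For day 1 against day -17, 1 member was higher (PRDX4, 0.72, adjusted p = 0.0112) and 4 were lower: PRDX6 (-1.29, 0.00114), SOD1 (-0.79, 0.00164), PRDX2 (-0.69, 0.00595) and GPX4 (-0.58, 0.0458). With this scaling the median over all probe sets was -0.38 in that comparison. Of the probe sets called there 16.8% were higher, in place of 49.8%, so falls were the rule over the whole array.

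**Figure D4:**
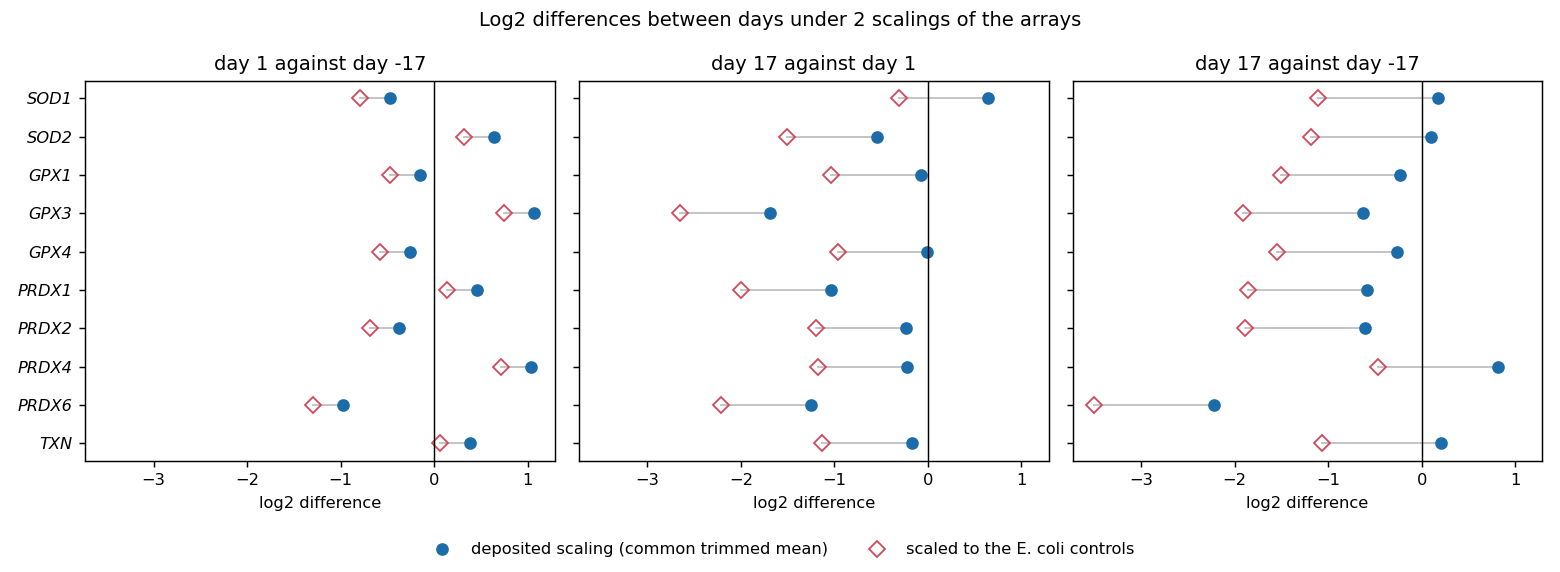
Log2 differences of the 10 genes in the 3 comparisons with the deposited scaling (filled circles) and after scaling each array to its E. coli controls (open diamonds). Every gene moves left by the same amount within a panel, 0.32, 0.96 and 1.28, and all 10 diamonds lie below 0 in the second and the third panel.

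Other genes of the antioxidant system were taken as 7 lists, of which 78 genes were tested. By limma, 23 were higher and 10 lower on day 1 than on day -17 (median log2 difference 0.13), 13 higher and 4 lower on day 17 than on day 1 (0.07), and 33 higher and 16 lower on day 17 than on day -17 (0.34). Over all 5670 genes tested, 15.3% were called higher and 10.4% lower in the first comparison. These shares were 8.02% and 8.57% in the second, and 23.8% in each direction in the third. Medians of all genes were -0.00080, -0.035 and -0.032. The counts of each list below stand beside these shares. Since the lists were chosen with earlier results of these data known, an excess over the shares is a description only. The 33 calls on day 1 became 21 when pool 3 of that day was left out, and the 17 from day 1 to day 17 became 9 without pool 2 of day 1 and 11, 10 and 8 without pools 1, 2 and 3 of day 17. With E. coli scaling 16 were higher and 22 lower, then 1 and 55, then 6 and 47. Among all probe sets called with that scaling, 16.8%, 0.776% and 3.65% were higher.

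Among 12 genes of selenium supply and other selenoproteins, 7 were higher on day 1 and 0 lower (median 0.78; 6 and 1 with E. coli scaling, median 0.46), and 7 were higher and 3 lower on day 17 than on day -17 (0.86), or 2 and 6 with E. coli scaling (-0.42). The 7 included SEPHS2, which makes the selenium donor (0.63 ± 0.12, limma adjusted p = 0.00437), and SCLY, which frees selenium from selenocysteine (1.19 ± 0.19, 0.00224). They also included 4 selenoproteins of the endoplasmic reticulum and Golgi, SELENOM (1.82 ± 0.21, 0.000352), SELENOT (1.47 ± 0.12, 5.48e-05), SELENOS (0.95 ± 0.13, 0.000944) and SELENOF (0.93 ± 0.12, 0.000616), and DIO2, a deiodinase (2.33 ± 0.55, 0.0132). Of these 7, SELENOM and DIO2 follow the rule for naming genes and the other 5 were chosen after their values were seen. DIO2 was dim on day -17 (39.7), so the size of its rise is uncertain, and its call was lost when pool 3 of day 1 was left out (adjusted p = 0.0611). On day 17 SELENOM was 4.96-fold above day -17 (2.31 ± 0.21, adjusted p = 2.8e-05), SELENON was lower (-0.91 ± 0.19, 0.00327), and SELENOH was lower than on day 1 (-0.76 ± 0.16, 0.0131). Among the members, GPX1, GPX3 and GPX4 are selenoproteins too, and none of them was called.

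Among 15 genes of thioredoxin and methionine sulfoxide reduction, 5 were higher and 1 lower on day 1 (median 0.16), 1 was higher and 0 lower on day 17 than on day 1 (0.02), and 6 were higher and 2 lower on day 17 than on day -17 (0.33). PRDX5, a peroxiredoxin of mitochondria, peroxisomes and cytosol, rose 2.30-fold by day 1 (1.20 ± 0.18, limma adjusted p = 0.00144). PRDX3, the mitochondrial peroxiredoxin, chosen after its values were seen, gave 0.10 ± 0.16 (0.667). MSRA, a methionine sulfoxide reductase, rose from day 1 to day 17 (0.98 ± 0.15, adjusted p = 0.00481; 0.03, 0.893 with E. coli scaling) and was higher on day 17 than on day -17 (1.25 ± 0.15, 0.000179; -0.032 with E. coli scaling). MSRB3, another such reductase, was lower on day 17 than on day -17 (-0.74 ± 0.19, 0.00909). TXNRD1, the cytosolic thioredoxin reductase that recharges TXN, was lower on day 1 (-0.46 ± 0.14, 0.0383), a call that ended without any 1 pool of day -17, day 1 pool 1 or 3, or day 17 pool 3 (adjusted p of 0.055 to 0.124). It also ended with both of its probe sets averaged (0.336), after quantile normalization (0.0661) or median centring (0.112), without a filter (0.051) or an intensity trend (0.0532), and with the 6 samples alone (0.0661).

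Among 16 genes of glutathione synthesis and use, 4 were higher and 2 lower on day 1 (median 0.10), 3 were higher and 1 lower on day 17 than on day 1 (0.38), and 6 were higher and 3 lower on day 17 than on day -17 (0.46). GSTO1, an omega class glutathione transferase, fell at each step, by 1.24 ± 0.16 from day 1 to day 17 (limma adjusted p = 0.00204) and by 2.12 ± 0.16 over the whole period (9.81e-06). GGT1, which breaks down extracellular glutathione, was called higher on day 17 than on day -17 (3.01 ± 0.39, 0.000239), from a dim 23.3. Its values were 14.0 to 30.8 on day -17 and 73.5 to 78.1 on day 1. The filter levels of those days were 86.4 to 93.1 and 82.1 to 89.1. GGT1 thus passed the filter through day 17 alone, and the size of its rise is uncertain. GSR, glutathione reductase, rose from day 1 to day 17 (0.82 ± 0.22, 0.0351; -0.13 with E. coli scaling), lost without day -17 pool 3, day 1 pool 1 or 3, or any 1 pool of day 17 (adjusted p of 0.053 to 0.108), after median centring (0.0516), without an intensity trend (0.0535) and with the 6 samples alone (0.0581). By day 1 GSTA1 rose from a dim 17.7 to 85.8, itself near the filter level (2.35 ± 0.64, 0.0246), and MGST3, a microsomal transferase, fell (-0.97 ± 0.25, 0.0196). The size of the GSTA1 rise is therefore uncertain too. The GSTA1 call ended without day -17 pool 1 or 2 or day 1 pool 2 or 3 (0.0536 to 0.0972), and that of MGST3 without day -17 pool 1 or 3 or day 1 pool 2 or 3 (0.0512 to 0.0653).

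Among 8 genes of superoxide, peroxide and metal handling, 3, 3 and 5 were called higher in the comparisons in the same order, with 0 lower each time (medians 0.28, 0.31 and 0.87; -0.035, -0.64 and -0.41 with E. coli scaling). SLC31A1, the copper importer, rose by day 1 (1.27 ± 0.16, limma adjusted p = 0.000531) and was 2.87-fold higher on day 17 than on day -17 (1.52 ± 0.16, 6.03e-05; 0.24, 0.177 with E. coli scaling). FTL, ferritin light chain, rose from day 1 to day 17 (0.93 ± 0.10, 0.00126; 0.29, 0.291 with its probe sets averaged; -0.024 with E. coli scaling). CCS, which delivers copper to SOD1, also rose in that step (0.63 ± 0.15, 0.0213; -0.33 with E. coli scaling), as SOD1 did. Over all 3 days the 2 genes differed in course. Means on days -17, 1 and 17 were 581, 747 and 1159 for CCS and 10769, 7710 and 12107 for SOD1. CAT, catalase, did not pass (-0.31 ± 0.18 by day 1, 0.234, and 0.11 ± 0.18 from day 1 to day 17, 0.721). CCS and CAT were chosen after their values were seen.

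Among 9 genes of NADPH supply, 1 was higher and 2 lower on day 1 (median -0.21), 1 was higher and 0 lower on day 17 than on day 1 (-0.02), and 3 were higher and 3 lower on day 17 than on day -17 (-0.19). NNT, the mitochondrial transhydrogenase, rose by day 1 (0.70 ± 0.14, limma adjusted p = 0.00654; 0.38, 0.0581 with E. coli scaling). ME1, the cytosolic malic enzyme, was lower on day 17 than on day -17 (-3.56 ± 0.62, 0.00135) and already on day 1 (-3.06 ± 0.62, 0.00708). It was dim after farrowing, at 294, 82.7 and 101 on day 1 and 79.4, 103 and 105 on day 17. Filter levels were 82.1 to 89.1 and 90.7 to 94.2 on these days, so the size of its falls is uncertain. TALDO1, of the pentose phosphate pathway, was higher on day 17 than on day 1 (0.68 ± 0.16, 0.0208; -0.28 with E. coli scaling) and than on day -17 (0.85 ± 0.16, 0.00195; -0.43 with E. coli scaling). The first TALDO1 call ended without day 1 pool 2 or any 1 pool of day 17 (0.0506 to 0.0723).

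Among 7 genes of the NRF2 list, 1 was higher and 2 lower on day 1 (median -0.10), 3 were higher and 0 lower on day 17 than on day 1 (-0.13), and 2 were higher and 1 lower on day 17 than on day -17 (-0.35). HMOX2, the constitutive haem oxygenase, rose by day 1 (0.46 ± 0.12, limma adjusted p = 0.0198) and was higher on day 17 than on day -17 (0.98 ± 0.12, 0.000158; -0.30 with E. coli scaling). The first of these ended without day -17 pool 2 or 3 or day 1 pool 3 (0.0574 to 0.0677), with E. coli scaling (0.433) and with the 6 samples alone (0.0506). EPHX1, an epoxide hydrolase, fell by day 1 (-1.54 ± 0.27, 0.00348) and rose from day 1 to day 17 (1.05 ± 0.27, 0.0309), the rise being lost without any 1 pool of day 1 or without day 17 pool 1 or 3 (0.0604 to 0.107), with E. coli scaling (0.745) and with no intensity trend (0.0501). BLVRA, biliverdin reductase, was lower on day 17 than on day -17, at a mean of 201 against 398 (adjusted p = 0.00908).

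Among 11 genes of oxidant sources, 2 were higher and 3 lower on day 1 (median 0.08), 2 were higher and 1 lower on day 17 than on day 1 (-0.16), and 4 were higher and 4 lower on day 17 than on day -17 (0.04). LPO, lactoperoxidase, a milk enzyme that uses hydrogen peroxide, rose from a dim 21.8 on day -17 to 130 on day 1 (2.74 ± 0.64, limma adjusted p = 0.0126) and 393 on day 17 (4.43 ± 0.64, 0.000426). Its day -17 values, 6.50 to 36.8, were below the filter level of 86.4 to 93.1, so the size of both LPO rises is uncertain. DUOX1, which releases hydrogen peroxide, rose from a dim 91.7 on day 1 to 319 on day 17 (1.78 ± 0.26, 0.00337). MAOB, a mitochondrial amine oxidase, had a mean of 943 on day -17, 216 on day 1 and a dim 54.7 on day 17, below the filter level of 90.7 to 94.2, so the size of its changes to day 17 is not given. It was called lower on day 17 than on day -17 (adjusted p = 0.000417), by day 1 (-2.08 ± 0.62, 0.0349) and from then to day 17 (0.0384). The call by day 1 was lost without day -17 pool 2 or 3 or any 1 pool of day 1 (0.0574 to 0.119), after quantile normalization (0.0524) and with no trend (0.0533). That from day 1 to day 17 was lost without day -17 pool 2, day 1 pool 2 or 3, or day 17 pool 1 or 2 (0.0522 to 0.117), with no trend (0.0598) and with the 6 samples alone (0.0578).

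**Figure D5:**
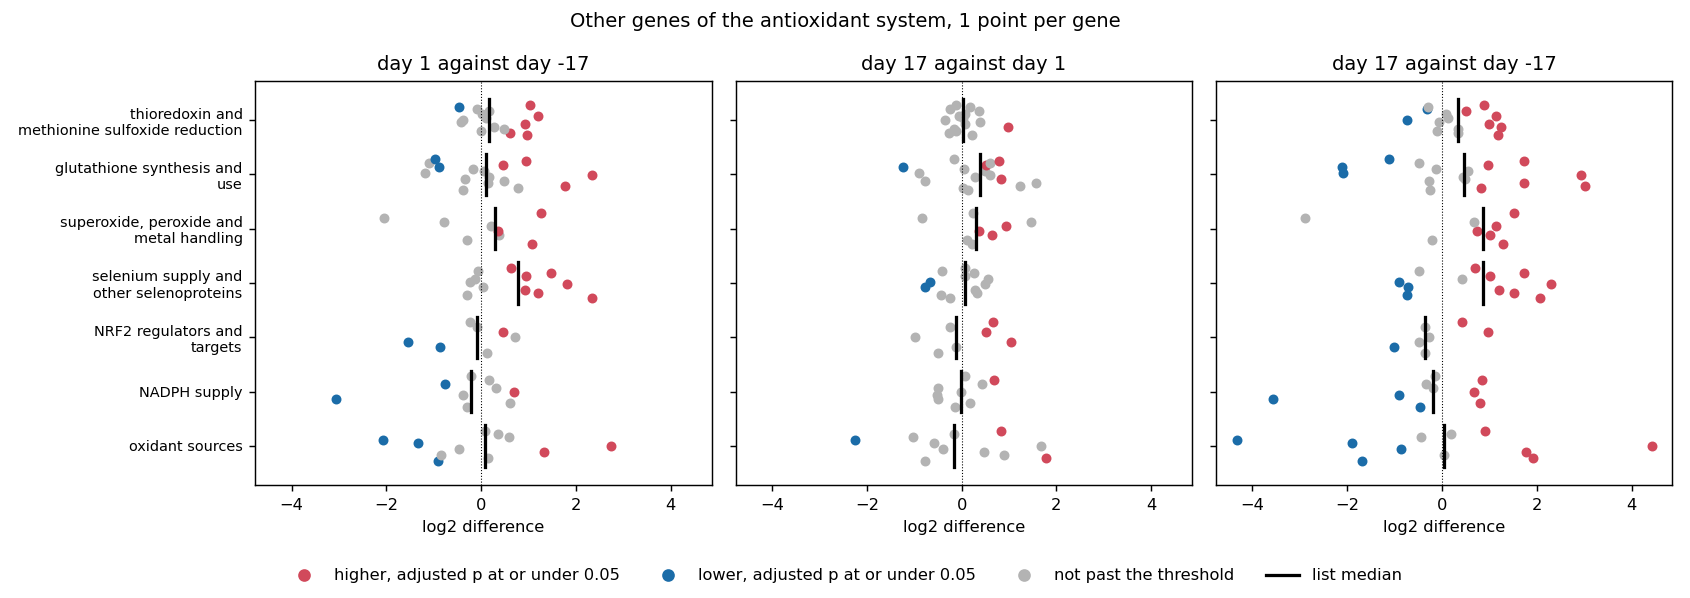
Log2 differences of 78 other genes of the antioxidant system in 7 lists, 1 point per gene, coloured by call, with a bar at each list's median, for the 3 comparisons. The selenium list has its median at 0.78 on day 1 against day -17, with 7 genes called higher and 0 lower, where 15.3% and 10.4% of all genes were. The medians of the NADPH and NRF2 lists lie below 0 in each panel.

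For each member, the genes whose log2 signal was most alike over the 9 arrays were sought among 5669 other genes, by Pearson's r. Arrays of the same day share that day, the pools may share sows, and the top of so long a ranking is high by its choice, so these values are a description. PRDX6 was closest to FCF1 (0.989), PDLIM1 (0.988) and RBM3 (0.983), and PRDX2 to CCT2, a chaperonin subunit (0.988), HIGD2A (0.983) and AKAP8 (0.982). PRDX1 was closest to EIF5A, a translation factor (0.981), the glycolytic enzyme ENO1 (0.962) and the collagen gene COL4A2 (0.959). PRDX4 was closest to GPATCH4 (0.980), YIPF5 of the early secretory pathway (0.977) and the proteasome activator PSME3 (0.969).

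TXN was closest to NUTF2 (0.968), EIF2S2 (0.967) and RAC1 (0.961), and SOD1 to ANAPC2 (0.944), BCKDHA (0.933) and GRSF1 (0.933). After quantile normalization these fell to between 0.663 and 0.763 for TXN and to 0.564 and 0.664 for ANAPC2 and BCKDHA, while GRSF1 gave 0.953. The likeness of TXN to its genes and of SOD1 to ANAPC2 and BCKDHA thus moved with the scaling. That of GPX4 to ALDH7A1 moved too, from 0.854 to 0.655. GPX3 was closest to TSKU (0.974), METRNL (0.927) and SAMD4A (0.921). For GPX1 (AGK 0.908, LAP3 0.888, CD247 0.842), GPX4 (AKT2 0.898, CS 0.865, ALDH7A1 0.854) and SOD2 (CIC 0.863, CCDC126 0.853, CTSV 0.834) the closest genes were less alike than for the members that differed among the days. By ranks (Spearman's rho) SOD2 gave 0.433 with CIC, 0.7 with CCDC126 and 0.567 with CTSV. SOD2 was far higher in day 1 pool 2 (7648) than elsewhere, and the part of that array was not tested.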

How the data were processed

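The authors' deposited values are intensities, 1 linear MAS5 signal per probe set and array per the submitters' processing notes, with the version not stated. The trimmed mean (2% at each end) was 500.088 to 500.112 on every array. Precision is limited by the number of arrays. Of 24123 probe sets, 124 controls were left out, and 15519 at or above the 40th percentile of their array in at least 3 of 9 arrays were tested, as log2 without a pseudocount, in limma 3.58.1 (R 4.3.3; lmFit, eBayes with an intensity trend), with day as the only term and all 9 arrays in the fit. By the platform annotation, 10099 probe sets carried 1 gene symbol, 198 several and 13826 none here. No p was adjusted over a list alone.

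The members and lists were chosen with earlier results of these data known. Named were all members, the 3 genes most like each, and from each list, per comparison, the called genes with the largest rise and the largest fall. Pairs of members were compared by exact permutation tests, two-sided. The code was tested on simulated data.

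Pool numbers were checked as pairs by the correlation, across probe sets, of deviations from the day means. Same-numbered pools gave 0.235 to 0.506 for day 1 against day -17 and 0.105 to 0.130 for day 17 against day -17, others at most 0.113 and -0.042, and the number was then treated as a pairing that comes from the data and not the labels. For day 17 against day 1 (0.096 to 0.107, others -0.077 to -0.027) it was not, since not all values passed the limit set. Each pool was closest to its own number there too. Pairs that hold in the other comparisons would also hold in this one, so the split follows the limit and not the design. In every comparison the main fit had day as its only term, so its calls are unpaired. Pool number entered only the block alternatives and the within-pool differences. Alternatives were other scalings (quantile, median, E. coli controls), a pseudocount of 16, no filter, a filter at the 60th percentile, no trend, 6 samples alone, pool number as a block, each array left out, and a mean over probe sets.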

Additional observations from a re-analysis of the deposited data

How the results depend on the processing

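Of 600 member results over the alternatives, 539 kept direction and side of the threshold, 16 lost a call, 25 gained one and 20 turned. E. coli scaling gave 5, 10 and 10 members changed in the 3 comparisons and 10 over the 3 days, 11723 (day 17 against day 1) and 12968 (day 17 against day -17) probe sets, and 56 partner genes for day 17 against day 1. It turned SOD1 (-0.31 for day 17 against day 1 and -1.11 for day 17 against day -17), SOD2 (-1.18), PRDX4 (-0.46) and TXN (-1.07), the last 3 for day 17 against day -17. For day 17 against day 1 it turned GSR (-0.13), FTL (-0.024) and TALDO1 (-0.28), and for day 17 against day -17 MSRA (-0.032), HMOX2 (-0.30) and TALDO1 (-0.43). This scaling subtracts a constant from every gene. Among probe sets called for day 1 against day -17, 49.8% were higher, beside 64.6% after median centring and 16.8% with E. coli scaling.

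Quantile normalization turned SOD1 (-0.16) and TXN (-0.16) for day 17 against day -17 and gave 0.19 for SOD2 minus SOD1. A mean over probe sets turned GPX4 (0.22, day 17 against day 1) and PRDX4 (-0.016, day 17 against day -17), and gave -0.037 and 0.56 for PRDX4 minus PRDX1. The cause of these was not tested.

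The pool number as a fixed or a random replicate block gave 5 members changed for day 1 against day -17. As a fixed block it also added GPX3 for day 17 against day 1 (adjusted p = 0.0236), and it changed no other member call in a comparison. The numbers were not taken as pairs for day 17 against day 1, although each pool there was closest to its own number. In a paired sign-flip test of the pair differences the smallest p possible was 0.25.

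Without 1 array, day 1 against day -17 gave 2 to 5 members, 2110 to 4424 probe sets and 21 to 35 partner genes, and day 17 against day 1 gave 2 to 4, 1049 to 2109 and 8 to 17. Day 17 against day -17 gave 3 to 5, 5887 to 7639 and 42 to 51. Leaving out 1 array turned differences that had not passed: GPX1 ranged from -0.45 to 0.048, -0.34 to 0.27 and -0.52 to 0.12 in the 3 comparisons, GPX4 from -0.096 to 0.065 and SOD2 from -1.11 to 0.018 for day 17 against day 1, and GPX3 from -1.16 to 0.17 and SOD2 from -0.019 to 0.22 for day 17 against day -17. Dim probe sets limit GPX3 and the second probe sets of GPX4 and PRDX4.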
